A study of Homo sapiens with 4 samples.

Results

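Broad H3K27ac domains are long, nearly unbroken stretches of acetylated chromatin. In SK-Hep1 cells carrying a control shRNA, 907 of 35307 H3K27ac peaks on the autosomes and X were at least 8000 bp wide, and these 907 domains are described here. They were chosen by their width in the control library, so their widths are a description and not a result. They held 11.4 Mb, or 14.4% of all bases in control peaks, with a median width of 10739 bp (quartiles 9003 and 14164.5 bp) and a maximum of 51000 bp. Near the threshold, the narrowest domains lay at ARF6, TRIO, TMEM170B, LEPR with LEPROT, and CITED2, with 8000, 8004, 8007, 8011 and 8012 bp. The widest peaks left out lay at S100A16 with S100A14, at CBX3 with HNRNPA2B1, at ACTN1, at ELP5 with CLDN7, and at NRP1, with 7993, 7991, 7988, 7987 and 7984 bp.

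The cells were SK-Hep1, labelled as a line from a human hepatic adenocarcinoma. H3K27ac was profiled by ChIP-seq in cells that stably carried an shRNA against SMARCB1 (the knockdown) and in cells with a control shRNA, both kept by puromycin selection. SMARCB1 itself was profiled in SK-Hep1 cells whose shRNA is not named in the labels, and an input library is labelled but was not analysed here. Each group had 1 library, so no difference below has a replicate check or a test.

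Acetylation of histone H3 at lysine 27 is placed by p300 and CBP and marks active promoters and enhancers. The widest acetylated stretches often hold several neighbouring enhancers, and in many cell types they lie at genes that are highly transcribed or particular to that cell type. SMARCB1 is a core subunit of the SWI/SNF remodelling complexes, which move nucleosomes at promoters and enhancers.

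Peaks were called at 10203310 tags in the knockdown and 13235203 tags in the control, or 1.30 control tags per knockdown tag, with 55.1% and 53.8% of tags in peaks. The knockdown list held 34073 peaks over 70.9 Mb and the control list 35307 peaks over 79.5 Mb. Both were called against the same control input, so a change in DNA copy number and a change in acetylation cannot be told apart. Fewer cells with the mark and less of the mark per cell cannot be told apart either. The labelled liver origin was set beside marker genes. Of 20 hepatocyte markers, 6 in the knockdown and 5 in the control were acetylated within 1 kb of either end, and ALB and HNF4A had none in either library. Of 18 mesenchymal or stromal markers, 11 had it in the knockdown and 12 in the control. Of 21 endothelial markers, 4 had it in each library, and PECAM1 and CDH5 had none. Among all 19817 protein-coding genes, 12593 (63.5%) had it in the control, and the mesenchymal share was close to this. The SMARCB1 gene had H3K27ac at an end in both libraries, in a knockdown peak of 1904 bp and a control peak of 2341 bp, which does not check an shRNA that acts on the transcript.

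Among the genes wholly inside the domains were 40 of 1911 miRNA genes (2.09%), in 32 domains. All control peaks together wholly held 252 miRNA genes (13.2%), these 40 among them. The domains held 14.4% of the bases in control peaks, so a count of this kind can come from their length. The mature sequences of 10 miRNAs from these 40 genes are shown because their genes lie in some of the widest domains. They are from RefSeq (GRCh38.p14), written 5′ to 3′, with the seed (bases 2 to 8) in capitals.
hsa-miR-29a-3p: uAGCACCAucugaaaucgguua
hsa-miR-29b-3p: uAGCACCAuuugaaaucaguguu
hsa-miR-221-3p: aGCUACAUugucugcuggguuuc
hsa-miR-222-3p: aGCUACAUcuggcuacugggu
hsa-let-7a-5p: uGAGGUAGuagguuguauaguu
hsa-miR-100-5p: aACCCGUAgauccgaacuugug
hsa-miR-24-3p: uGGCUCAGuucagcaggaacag
hsa-miR-27a-3p: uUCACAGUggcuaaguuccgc
hsa-miR-23a-3p: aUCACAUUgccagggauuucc
hsa-miR-21-5p: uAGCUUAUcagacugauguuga
Mature sequences were used for 38 of these 40 genes, 60 in all with 58 different seeds. The counts of sequences and seeds cover these 38 genes only. The 2 shared seeds were AGCACCA in miR-29a-3p and miR-29b-3p, and GCUACAU in miR-221-3p and miR-222-3p. Each of these pairs lies in 1 domain.

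The miRNA genes mostly stayed inside acetylated chromatin in the knockdown. A knockdown peak overlapped 35 of the 40 genes in domains, or 87.5% (73.9 to 94.5%), and 190 of 212 in other control peaks, or 89.6% (84.8 to 93.0%). These and all later ranges in parentheses after a share are 95% Wilson intervals, which cover counting error only. The 5 without one were MIR29A, MIR29B1, MIR221, MIR3167 and MIR1244-1. MIR29A and MIR29B1 lie at chromosome 7 (hg38), 130876747 to 130876810 and 130877459 to 130877539, in a stretch of the widest domain without a knockdown peak. MIR221 fell between knockdown peaks of its domain, and MIR222, at chromosome X, 45747015 to 45747124, was partly overlapped by a knockdown peak of 501 bp. MIRLET7A2 and MIR100, at MIR100HG, lay in knockdown peaks of 3229 and 15527 bp. MIR23A, MIR27A and MIR24-2 shared 1 knockdown peak of 23104 bp, and MIR21, at an end of VMP1, lay in one of 20815 bp. No RNA level was measured.

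Most bases of the domains were still in called H3K27ac peaks in the knockdown. The level of acetylation inside the peaks was not measured. Every one of the 907 domains was met by a knockdown peak, so the share without one was 0% with an upper limit of 0.422%. This share was 0.0953% in control peaks of 4000 to under 8000 bp and 17.7% in all control peaks. A wider region meets a peak more easily by its length alone. Knockdown peaks covered a median of 90.6% of a domain (quartiles 82.8 and 96.2%, range 46.8 to 100%) and 88.7% of all domain bases. Only 2 domains, or 0.221% (0.0605 to 0.800%), were covered under 50%, against 22.3% of all control peaks and 2.61% of those of 4000 to under 8000 bp. The count was 17 with neighbouring control peaks merged, 12 with a minimum of 6000 bp and 7 with only the wider 50% of knockdown peaks. Coverage was under 75% in 99 domains, or 10.9% (9.05 to 13.1%), and 34 domains were wholly covered. Of the 1285554 uncovered bases, 758676 (59.0%) lay at the domain edges and 526878 (41.0%) between knockdown peaks.

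Domains selected on their width in 1 library tend to be narrower in any other, so the libraries were also exchanged. The knockdown had 679 peaks of at least 8000 bp, over 8.04 Mb, with a maximum of 38177 bp. Control peaks covered a median of 100% of these (quartiles 97.2 and 100%) and 96.4% of their bases, which exceeds the 90.6% and 88.7% found above. Of the 679 broad knockdown domains, 610 (89.8%) overlapped a broad control domain, and of the 907 broad control domains, 599 (66.0%) overlapped a broad knockdown domain. When all overlapping peaks of both libraries were joined, 1007 joined regions were at least 8000 bp wide. Of these, 187 (18.6%) were more covered by knockdown peaks and 820 (81.4%) by control peaks. The part of sequencing depth in this difference was not tested.

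**Figure D1:**
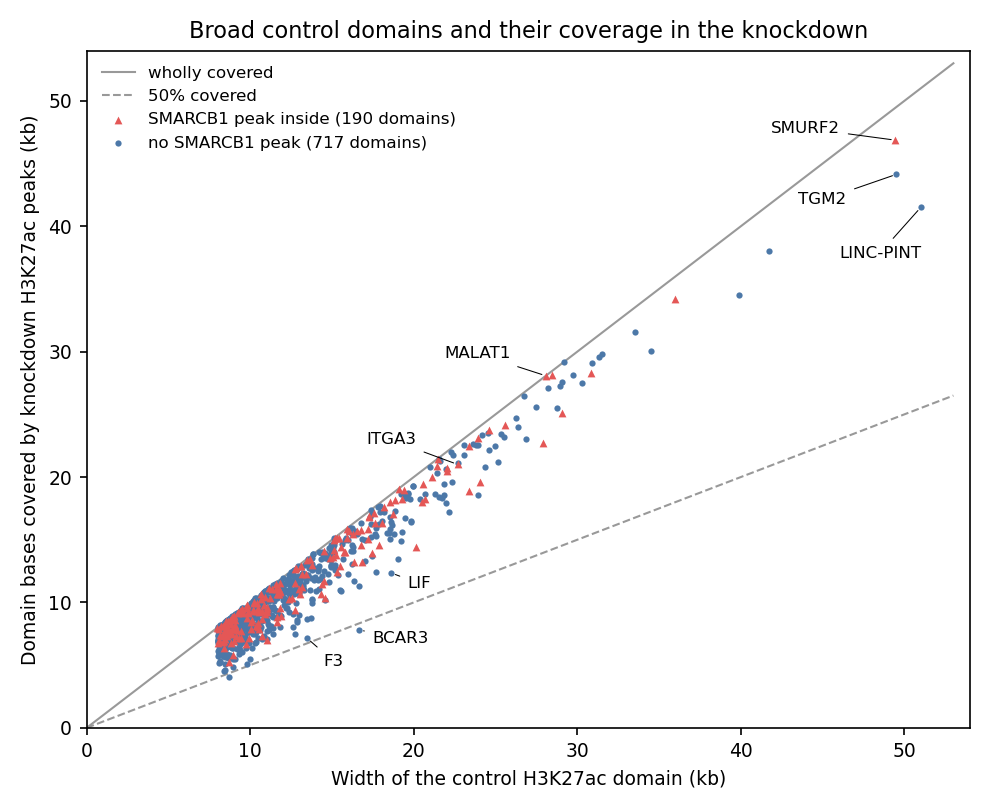
Width of each of the 907 control domains (x axis, kb) against the domain bases covered by knockdown H3K27ac peaks (y axis, kb), with triangles for the 190 domains with a SMARCB1 peak and circles for the other 717. Most points lie just under the line of whole coverage, and 1 BCAR3 domain of 16682 bp lies visibly under the 50% line.

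Many domains were called in several pieces in the knockdown, a count that depended on how the caller split peaks. Of the 907, 524 (57.8%) were met by 1 knockdown peak, 292 by 2, 71 by 3 and 20 by 4 or more. The 383 domains met by 2 or more, or 42.2% (39.1 to 45.5%), stand beside 3.05% of all control peaks and 14.8% (13.6 to 16.1%) of those of 4000 to under 8000 bp. The count was 175 with knockdown peaks up to 1000 bp apart merged, and 620 with control peaks merged. A longer region can hold more pieces, and within the domains the share was 30.0, 35.2, 45.6 and 58.1% in 4 equal width classes taken from narrow to wide. Of the 679 broad knockdown domains, 71, or 10.5%, were met by 2 or more control peaks. Knockdown peaks reached beyond the edge of 385 control domains (42.4%).

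Coverage was similar to that of peaks of intermediate width. The median was 90.6% in the domains, 89.1% in peaks of 4000 to under 8000 bp, 88.5% in those of 2000 to under 4000 bp and 84.0% in those of 1000 to under 2000 bp. Of the peaks under 1000 bp, 52.4% had no knockdown peak, so their median was 0%.

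**Figure D2:**
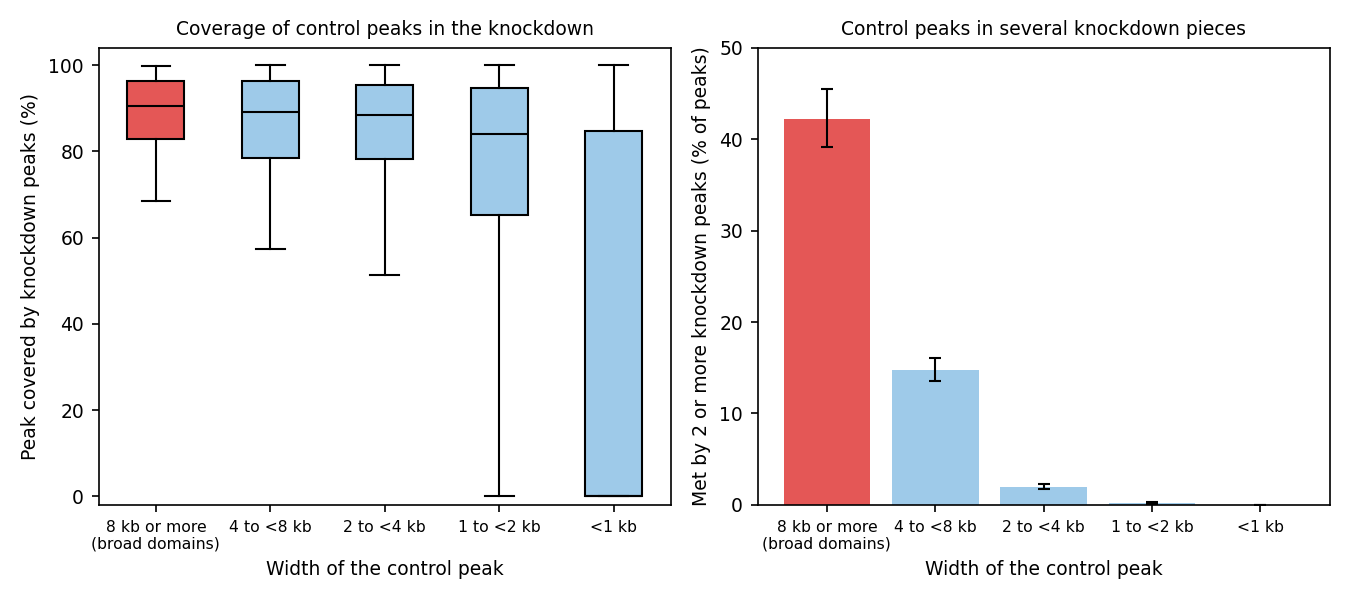
Left, share of each control peak covered by knockdown peaks (%), by width of the control peak, with the median, the quartiles (box) and the 5th and 95th percentiles (whiskers). Right, percentage of control peaks met by 2 or more knockdown peaks with 95% Wilson intervals, which is 42.2% in the domains and 14.8% in the next class.

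The widest domain spanned chromosome 7, 130872143 to 130923142 (hg38), at LINC-PINT, a long non-coding RNA gene, and 3 knockdown peaks covered 41502 of its 51000 bp (81.4%). TGM2, which encodes a protein-crosslinking transglutaminase, had a domain at chromosome 20, 38124651 to 38174165, of which 5 knockdown peaks covered 44143 of 49515 bp (89.2%). SMURF2, a ubiquitin ligase that acts on SMAD proteins, had one at chromosome 17, 64642679 to 64692126, with 46869 of 49448 bp covered (94.8%). These 3 were each met by several knockdown peaks, which covered most of their bases.

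UGCG, which encodes glucosylceramide synthase, had adjoining domains of 41695 and 39884 bp on chromosome 9, of which 91.3 and 86.5% were covered. The narrower was met by 8 knockdown peaks, more than any other domain. MIR222HG, a host gene of miR-221 and miR-222, lay in a domain of 33516 bp with 94.3% covered. CRIM1, a transmembrane regulator of bone morphogenetic proteins, had 34488 bp with 87.2% covered, and MYOF, which encodes the membrane repair protein myoferlin, had 31516 bp with 94.5%. A domain of 29191 bp inside DCDC2 was wholly covered by 1 knockdown peak. Coverage of the 20 widest ranged from 81.4% at LINC-PINT to 100% at DCDC2, so none was without knockdown peaks.

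**Figure D3:**
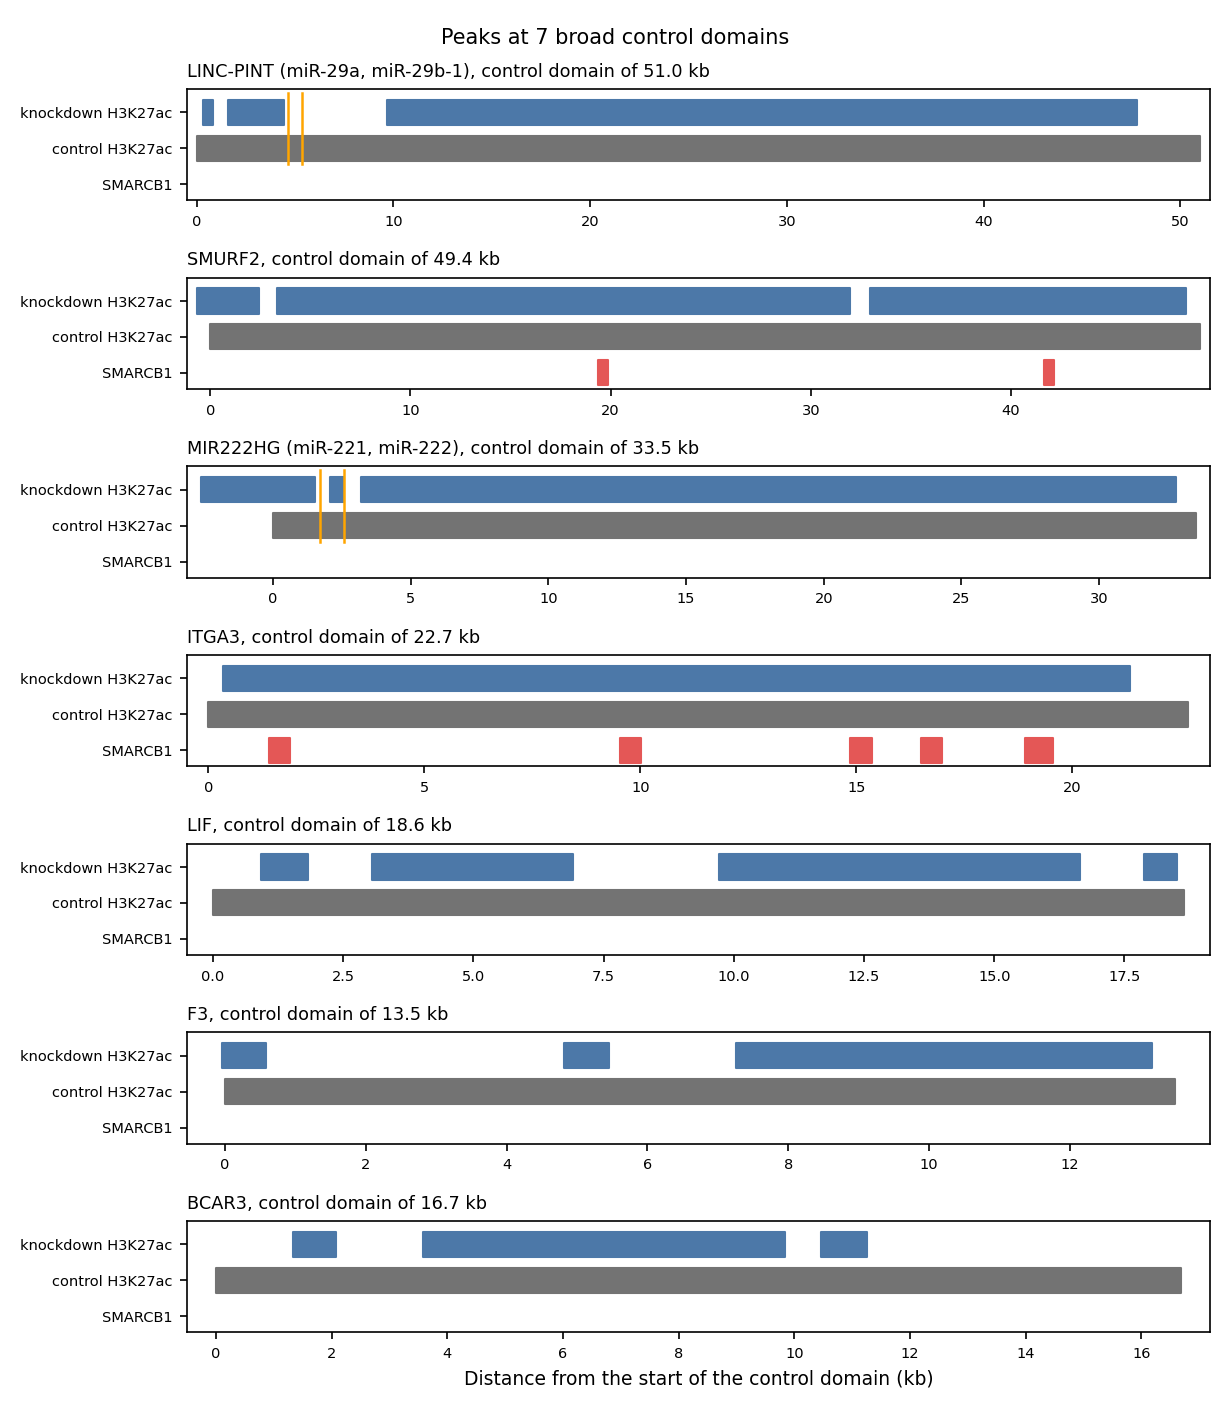
Peaks at 7 control domains by distance from the start of the domain (kb), with knockdown H3K27ac above control H3K27ac and SMARCB1 below, and miRNA genes as orange lines. In the domain at LINC-PINT, the stretch with the miR-29 genes, which lie just outside that gene, has no knockdown peak. ITGA3 has 5 SMARCB1 peaks, and knockdown peaks cover 52.9 and 46.8% of the control domains at F3 and BCAR3.

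The lowest coverage was found in BCAR3. Inside BCAR3, an adaptor in integrin signalling, knockdown peaks covered 7799 of 16682 bp of one domain and 4071 of 8708 bp of another, 46.8% of each. F3, which encodes tissue factor, the starter of blood coagulation, had 7136 of 13488 bp covered (52.9%) at chromosome 1, 94529673 to 94543160. ANPEP, a membrane aminopeptidase, and CD2AP, an adaptor of the actin cytoskeleton, both had 54.3%. The other domains among the 10 least covered lay near ASB13 (52.2%), near TOMM20 (54.6%), inside EXT1 (54.8%) and ASAP1 (58.4%), and at SLC27A1 with PGLS (59.7%). Only the domain at SLC27A1 and PGLS held a SMARCB1 peak.

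Knockdown peaks reached beyond the edge of 385 domains, and in 343 of these all bases beyond the edge lay outside control peaks. In the others, some of these bases lay in other control peaks, and the longest stretches were among them. Summed per domain, 264210 knockdown bases lay beyond the edges, of which 51.9% were outside control peaks and 48.1% inside other control peaks. The largest such stretch was inside LIMA1, an actin-binding protein gene, with 17846 bp beyond a domain of 11019 bp that was 64.1% covered. Of these, 16867 bp lay in the next broad domain of the same gene, so 1 knockdown peak of 18353 bp met 2 control domains. At CAVIN1, which encodes a component of caveolae, 13468 of 15790 bp beyond a domain of 8467 bp likewise lay in its neighbour. ARHGAP18 had 7457 bp beyond a wholly covered domain of 11005 bp, with 4713 bp in other control peaks and 2744 bp outside them.

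Many domains lay close together, although the median distance to the next domain was 736.2 kb. Within 100 kb of one another, 428 domains (47.2%) formed 167 groups. The largest had 10 domains, at genes of the pregnancy-specific glycoprotein (PSG) family on chromosome 19, with 87.5% of their 111.0 kb covered. PSG genes are near-identical copies. Not given in the sources used here is how reads that match several copies were placed, so assignment within this family is uncertain. EXT1, which encodes a heparan sulfate polymerase, had 9 domains over 137.0 kb with 86.2% covered. TRIO, a guanine nucleotide exchange factor gene, had 6 with 83.2%. The groups at UGCG and SUSD1, at BLID and at CDKN1B and GPRC5A had 5 each, with 88.3, 89.0 and 89.7% covered. The 4 domains inside BCAR3 had 65.6% of their 54.6 kb covered, the lowest share among groups of 4 or more.

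By place, 350 domains (38.6%, 35.5 to 41.8%) had an end of a protein-coding gene within 1 kb, against 32.4% of all control peaks, 39.8% of those of 4000 to under 8000 bp and 48.2% of those of 2000 to under 4000 bp. Length by itself raises the chance of meeting a gene end. Another 297 (32.7%) lay inside a gene and 260 (28.7%) between genes. A long non-coding RNA gene overlapped 132 of the 260 (50.8%), beside 304 of all 907 domains (33.5%). Such overlaps were not counted for other control peaks. Median coverage was 90.8% at gene ends, 89.0% inside genes and 91.6% between genes, so it varied little with place. Conversely, 444 of 19817 protein-coding genes, or 2.24%, had a domain within 1 kb of an end. Of these 444, 442 also had knockdown H3K27ac at an end, and the other 2, SCGB1A1 and LOC124909439, had domains that were 97.6 and 91.7% covered by knockdown peaks that did not reach within 1 kb of the gene.

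Genes of the YAP and TEAD pathway, which controls growth and adhesion, had domains often. Of 25 listed members, 11 (44%) had a domain at an end, beside the 2.24% of all protein-coding genes. Among members with control H3K27ac at an end the share was 47.8%, beside 3.53% of all such genes. The list was chosen with earlier results of these data known, so the count is a description. Median coverage at these 11 was 84.8%, against 90.8% over all domains at gene ends. AMOTL2, which encodes an angiomotin that restrains YAP, had 23062 of 26883 bp covered (85.8%). NT5E, an ectonucleotidase, had 17191 of 22132 bp (77.7%), and ARHGAP29, a GTPase-activating protein gene, had 20518 of 22051 bp (93.0%). CCN1, a secreted matrix protein and YAP target, had 10911 of 12864 bp (84.8%). F3 was the least covered of the list, and FJX1 the most.

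AP-1 and immediate early genes had 5 of 22 members with a domain (22.7%), at a median coverage of 94.4%. The share of all protein-coding genes was 2.24%, and 3.53% of those with control H3K27ac. FOSL1, an AP-1 subunit, had 19408 of 20558 bp covered (94.4%), and KLF2 and KLF6, zinc finger factors, had 95.3 and 91.7%. FOSL2 had 82.4% and IER2 94.5%. Of the genes for MAPK feedback, 4 of 22 (18.2%) had a domain. PHLDA1 was wholly covered, and ERRFI1, an inhibitor of the EGF receptor, had 10335 of 14573 bp (70.9%).

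Matrix and integrin genes had 9 of 43 members with a domain, at a median coverage of 85.4%, and actin and focal adhesion genes 8 of 42, at 82.1%. Of all protein-coding genes 2.24% had a domain at an end, and of those with control H3K27ac at an end 3.53%. ITGA3, an integrin chain, had 21010 of 22678 bp covered (92.6%). LAMB3 and ITGB1, a laminin and an integrin chain, had 89.3 and 92.9%, and SPARC, a matrix glycoprotein, 92.8%. ACTN4 and TPM1, which encode an actinin and a tropomyosin, had 94.0 and 86.1%. THBS1 and PLAU, a thrombospondin and the urokinase gene, were lower, at 70.5 and 72.4%. NF-kB and inflammation genes had 4 of 34 members with a domain (11.8%). LIF, an interleukin-6 family cytokine, had 12344 of 18639 bp covered (66.2%), and BCL3 had 63.3%, while SOCS3, a cytokine signalling inhibitor, had 99.8%. The median over these 4 was 72.1%.

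Non-coding RNA and host genes had 8 of 29 members with a domain, at a median coverage of 96.4%, the highest of the lists with 4 or more domains. Most of these are not protein-coding, so the 2.24% does not apply to them. MALAT1 was wholly covered over 28078 bp, NEAT1 98.9% over 15132 bp, and VMP1, where miR-21 lies, 99.2% over 20980 bp. LINC-PINT was the lowest of the list. Cell cycle genes had 6 of 37 (16.2%, beside 2.24% of all protein-coding genes), at 92.9%. Among them was CCND1, the cyclin D1 gene, with 13535 of 14885 bp (90.9%). PLK2 was wholly covered, and CDKN1A and CDKN1B, inhibitors of cyclin-dependent kinases, had 93.5 and 97.4%.

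The remaining gene lists had few members with a domain, from 3.33% of mesenchymal transcription factors to 10.3% of HOX genes, ribosomal protein genes aside. The share was 2.24% of all protein-coding genes and 3.53% of those with control H3K27ac at an end. HOX genes had 4 of 39 (HOXB3, HOXB5, HOXB6 and HOXB7, in 2 domains), cholesterol genes 2 of 25 (SREBF1 among them), hypoxia and glycolysis genes 2 of 31 (PKM and ENO1), and receptor tyrosine kinases and ligands 2 of 35 (EPHA2 and AXL). Among mesenchymal transcription factors FOXD1 had one (1 of 30), among SWI/SNF subunits ARID1A (1 of 28), and among acetyltransferases, deacetylases and BET readers BRD2 (1 of 20). None of 44 ribosomal protein genes had one, although all 44 had control H3K27ac at an end. No hepatocyte, endothelial or neural marker had a domain within 1 kb of an end. SPARC and VIM did among mesenchymal markers, KRT8 and KRT18 among epithelial ones, sharing 1 domain, and CD68 among leukocyte ones. PTPRC, a leukocyte marker without H3K27ac at an end in either library, held a domain of 19521 bp inside the gene, 94.0% covered. At an end of the MYC gene the knockdown peak and the control peak were both 7377 bp wide, under the 8000 bp threshold.

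**Figure D4:**
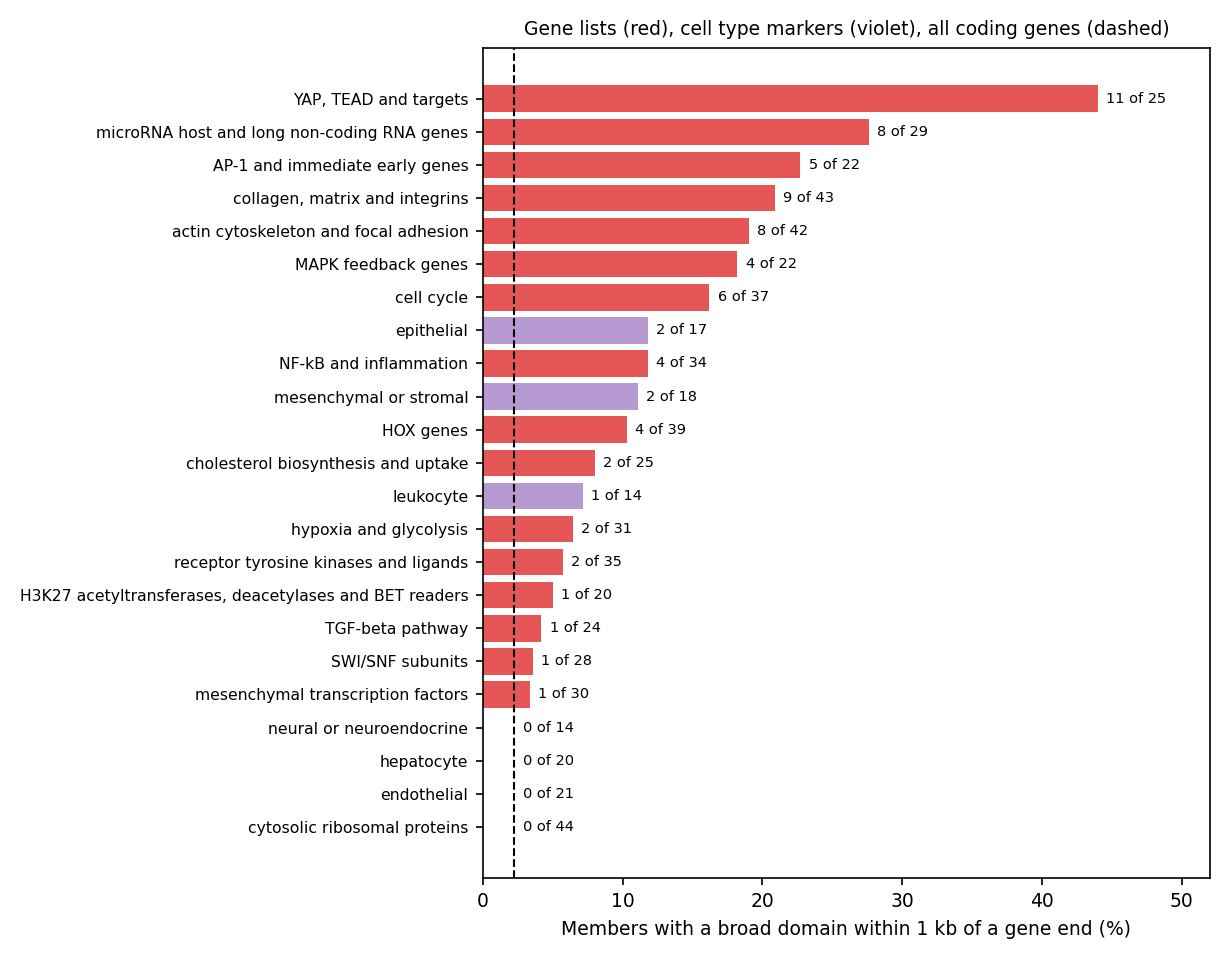
Percentage of the members of each gene list (red) and marker list (violet) with a broad control domain within 1 kb of a gene end, with counts beside the bars. The dashed line is the 2.24% of all protein-coding genes, and the YAP and TEAD list is highest with 11 of 25.

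SMARCB1 peaks lay in 190 domains, or 20.9% (18.4 to 23.7%), against 8.65% of all control peaks. These held 240 of the 4453 SMARCB1 peaks (5.39%), with 1 peak in 150 domains, 2 in 33, 3 in 5 and 4 or more in 2. A wider region meets more peaks by its length alone. Per Mb the domains held 21.0 SMARCB1 peaks, against 42.8 in all control peaks under 8000 bp and 49.4 in peaks of 2000 to under 4000 bp. Peaks under 1000 bp held 26.3, and by peak centre 21.3, against 20.8 in the domains. The domains thus had the highest share with SMARCB1, and a density near that of the narrowest class and under that of the other 3 classes, with no test of either.

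**Figure D5:**
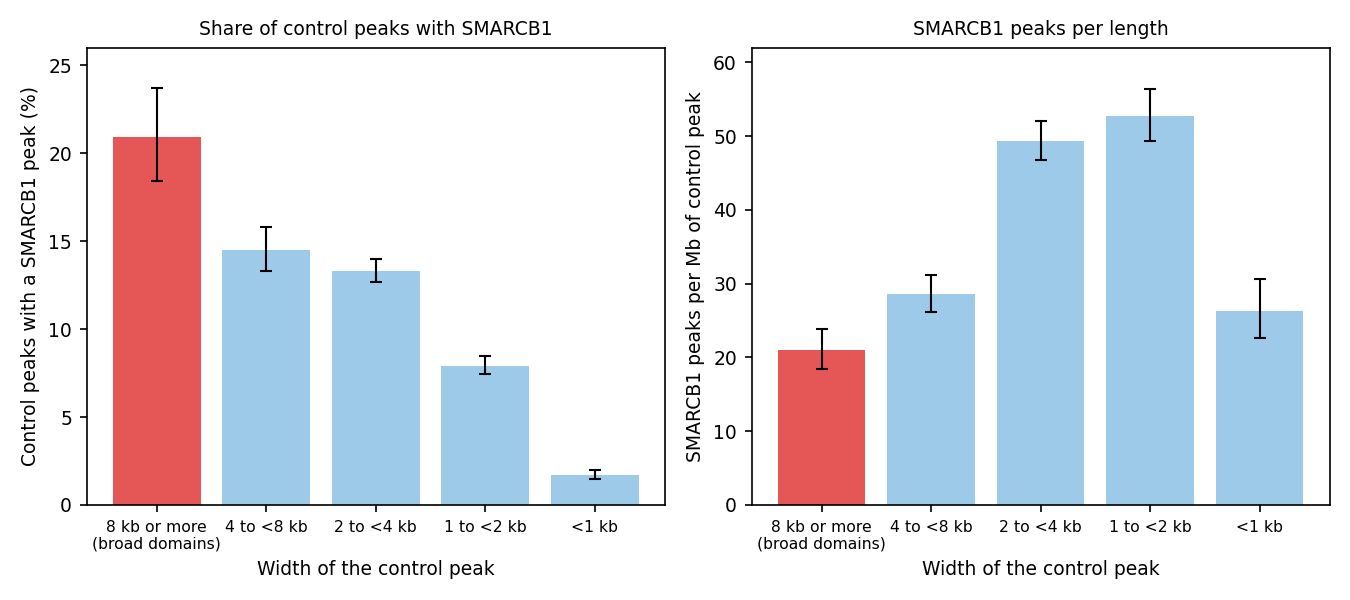
Left, percentage of control peaks with a SMARCB1 peak, with 95% Wilson intervals. Right, SMARCB1 peaks per Mb of control peak, with exact 95% Poisson intervals for counting error, both by width of the control peak. The domains have the highest share, 20.9%, at a density of 21.0 per Mb.

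Inside the domains, a smaller share of SMARCB1 peaks was placed at promoters. The authors classed 57 of the 240 as promoter-TSS, or 23.8% (18.8 to 29.5%), against 41.3% (39.5 to 43.1%) of the 2903 in other control peaks. Introns held 81 (33.8%, against 25.1%) and intergenic sequence 55 (22.9%). A SMARCB1 peak lay in 30.3% (25.7 to 35.3%) of domains at gene ends, 15.5% of those inside genes and 14.6% of those between genes. Among genes, 103 of the 444 with a domain had a SMARCB1 peak at an end, or 23.2% (19.5 to 27.3%), against 2314 of 12149 other genes with control H3K27ac, with an interval of 18.4 to 19.8%.

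ITGA3 held 5 SMARCB1 peaks, the most of any domain, and the domain at MSH5, CLIC1 and DDAH2 held 4. HMGA1, a chromatin architectural protein gene, and TRNP1 held 3 each, as did PLEC and MALAT1. The unit of the authors' value per SMARCB1 peak is unknown. The highest in a domain was 450 at MALAT1, in a peak the authors classed as non-coding, and TRIM52 with RACK1 had 57, in one classed as promoter-TSS.

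Median coverage in the knockdown was close with and without SMARCB1. Domains with a SMARCB1 peak were covered at a median of 92.0% (width 11572.5 bp) and those without at 90.1% (width 10616 bp). Of the domains with one, 40.5% (33.8 to 47.6%) were met by 2 or more knockdown peaks, and of those without one 42.7% (39.1 to 46.3%). Knockdown H3K27ac overlapped 236 of the 240 SMARCB1 peaks in domains (98.3%) and 96.0% of those in other control peaks.

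Promoter sequences bear on the domains whose SMARCB1 peak lies over a gene start. The 100 bases before the start are shown for 4 such genes with 1 listed start: DUSP1, a MAPK phosphatase, DKK1, a Wnt inhibitor, MT2A, a metallothionein, and SMURF2. They are from RefSeq (GRCh38.p14), 5′ to 3′ on the strand of the gene, with matches to the motifs searched in capitals.
DUSP1 (chr5:172771196-172771295, minus strand): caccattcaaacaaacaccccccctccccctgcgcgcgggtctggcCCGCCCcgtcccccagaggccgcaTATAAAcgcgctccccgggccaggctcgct
DKK1 (chr10:52314181-52314280, plus strand): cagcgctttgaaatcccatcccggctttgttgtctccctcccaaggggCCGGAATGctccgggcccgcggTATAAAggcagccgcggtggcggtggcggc
MT2A (chr16:56608484-56608583, plus strand): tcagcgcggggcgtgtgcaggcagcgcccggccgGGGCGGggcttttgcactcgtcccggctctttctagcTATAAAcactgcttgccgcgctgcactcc
SMURF2 (chr17:64662308-64662407, minus strand): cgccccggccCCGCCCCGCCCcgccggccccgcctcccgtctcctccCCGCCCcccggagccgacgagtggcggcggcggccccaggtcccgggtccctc
DUSP1, DKK1 and MT2A hold a TATA box (TATAAA), DUSP1, MT2A and SMURF2 an SP1 motif (GGGCGG, or CCGCCC where it lies on the other strand), and DKK1 overlapping ETS (CCGGAA) and TEAD (GGAATG) motifs. These 4 promoters were chosen after values were seen, so their motifs do not stand for the other promoters in domains. Of the 484 windows of 300 bp in domains, 9.09% held TATAAA and 13.2% GGAATG. The SMARCB1 values over these starts were 19.5 at DUSP1, 18.5 at DKK1, 11.6 at MT2A and 15.3 at SMURF2. Their domains were covered at 85.8, 97.6, 80.6 and 94.8%.

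Motifs were searched on both strands in windows of 300 bp, 250 before and 50 after each listed start, which existed for 15811 of 19817 protein-coding genes (79.8%). In domains there were 484 windows of 330 genes, and several windows can belong to 1 gene. TATAAA was in 9.09% (6.84 to 12.0%) of these, 4.45% (4.11 to 4.82%) of the 12648 windows in other control peaks and 9.46% of all windows. The AP-1 motif TGANTCA was in 7.64% (5.60 to 10.4%), 4.17% (3.83 to 4.53%) and 6.15%. CCGGAA was in 22.9% (19.4 to 26.9%), 30.2% (29.4 to 31.0%) and 21.2%. Outside control peaks the shares were 16.5% for TATAAA, 8.86% for TGANTCA and 8.30% for CCGGAA. For each of these motifs, the share in domains lay between that in other control peaks and that outside control peaks, near the share over all windows. The intervals take windows of 1 gene as independent and so are too narrow. GGAATG was in 13.2, 10.5 and 12.2%, GGGCGG in 69.2, 73.5 and 56.3%, TGTGGT (RUNX) in 11.0, 8.39 and 11.3%, CACGTG (E-box) in 7.64, 10.2 and 8.34%, CCAAT in 33.1, 34.7 and 34.6%, and TGACGTCA (CRE) in 1.86, 3.08 and 2.26%. Median CpG counts per window were 25 (lower quartile 12) in domains and 27 (lower quartile 20) in other control peaks. A match in these letters is not a bound site.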

How the data were processed

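ChIP-seq peak lists of SK-Hep1 cells were used, 1 library per group. Per the file headers, the authors called both H3K27ac lists with HOMER in histone style against 1 control input (peak size 500 bp, minimum distance 1000 bp, 4-fold over input and local signal) and stitched peaks into regions. Bowtie2, HOMER and hg38 are named in the submitters' processing notes, without versions. The deposited H3K27ac score is a placeholder, 1 for all peaks, which leaves width as their size. Not given in the sources used here were the caller settings, depth and value unit of the SMARCB1 list.

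Other sequences than the autosomes and X held 3 peaks per H3K27ac list, which were left out. Overlap means at least 1 base, checked with bedtools 2.31.1, and coverage code was tested on simulated data. Genes came from RefSeq (GRCh38.p14), without strand, so either gene end stands for a promoter. A domain is called by protein-coding genes with an end within 1000 bp, else by the gene around it, else by the nearest gene. Named domains were the widest, least covered, most extended and most divided ones, those with most SMARCB1 peaks, those next to the threshold, the largest groups and members of the gene lists, some of which are not reported here. The 4 promoters and 10 miRNAs printed, LINC-PINT, MIR222HG and MALAT1 as names of their domains, and PTPRC and the BCAR3 group were chosen after values were seen. The members and lists were chosen with earlier results of these data known. Software was matplotlib 3.10.9, SciPy 1.17.1, pandas 2.3.3, NumPy 2.4.6 and Python 3.11.15.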

Additional observations from a re-analysis of the deposited data

How the results depend on the processing

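With a minimum of 6000 bp there were 1741 domains, with 88.1% of bases covered, 12 under 50%, 593 met by 2 or more knockdown peaks and 18.2% with a SMARCB1 peak. With 10000 bp there were 554, with 89.2% of bases covered and 1 under 50%. When control peaks up to 1000 bp apart were merged, median coverage was 85.6%, base coverage 84.5%, 17 domains were under 50% and 620 were met by 2 or more. When knockdown peaks were merged instead, these were 93.4%, 90.7%, 1 and 175, so the count in several pieces depends on how the caller split peaks. With the wider 50% of knockdown peaks, base coverage was 87.4% and 7 domains were under 50%. Without chromosome 1, base coverage was 88.7% and 0 domains were under 50%, since both lay at BCAR3 there. The higher-value 50% of SMARCB1 peaks lay in 11.7% of domains at 11.4 per Mb. A gene end within 5000 bp was found for 43.2%. Broad domains of merged knockdown peaks had a median of 99.5% covered by control peaks. Of the alternatives chosen after seeing the data, gene starts alone gave 32.1%, leaving out SMARCB1 peaks in exon, 3' UTR, TTS and non-coding classes gave 18.4% of domains and 17.4 per Mb, and the union of both libraries gave a base coverage of 89.3%. No paired analysis was possible because each group had 1 library and no result came from a test. Read depth per domain is not in the peak lists.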
